A study of Mus musculus with 170 samples.

Results

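CD8 T cells sorted as naive (3 libraries) and CD8 T cells sorted as virtual memory (5 libraries) from the spleens of aged mice were compared here by RNA sequencing. The 8 libraries were taken from a table of 170 by cell type and age as the sample titles give them. All animals were on a C57/Bl6 background and untreated as far as the labels say, and each library pooled the spleens of 5 healthy animals, so replicates are pools and p-values reflect the spread between pools. The old naive and old virtual memory groups came from mice aged 22 to 24 months, and the young naive (4 libraries) and young virtual memory (5 libraries) groups used for the age comparison from mice aged 2 months. The antibodies and gates of the sort are not given in the sources used here.

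CD8 T cells carry the killing arm of adaptive immunity. Naive cells have not met antigen, circulate through lymphoid organs by CCR7, and carry little CD44. Virtual memory cells are a memory-like subset that arises in unimmunised mice through interleukin-15 and interleukin-4 signals. They have high CD44 and high CD122, the receptor chain encoded by Il2rb, with low CD49d (Itga4), which sets them apart from memory cells made by antigen, and they depend on the T-box factors Eomes and T-bet (Tbx21).

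Total counts ran from 1453672 to 3510149 in the 8 old libraries, and from 1378514 to 6821886 over the 17 libraries of both ages. Levels are normalised counts (CPM) scaled over those 17 libraries. They are 3′ tag levels, and a lower level in a bulk sample can mean fewer cells that express a gene or less RNA per cell, which cannot be told apart. Among the old libraries, virtual memory replicate 4 stood apart: immunoglobulin genes took 6.55% of its counts, against 0.0695% to 0.211% in the other 4 virtual memory libraries, and globins 1.23%, against 0.0657% to 0.22%. Its Cd4 level was 39.2 CPM, against 0 to 3.00 CPM in the other 4. The summed level of 6 CD4 T cell markers was 306 CPM in it and 30.6 to 58.5 CPM in the other 4. That sum was 132 to 178 CPM in old naive libraries and 30.5 to 42.0 CPM in young naive libraries. Of the 3 of these markers tested, 0 were higher and 1, Zbtb7b, was lower in old naive libraries. Replicate 4 is marked in the plots, and counts without it are given below.

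Transcripts of other cell types also touch the results. All 11 adipocyte marker genes were higher in old naive than in old virtual memory libraries. Their summed level was 5629 to 6114 CPM in the 3 old naive libraries, against 3.29 to 18.6 CPM in the 5 old virtual memory libraries, and 5765 to 6631 CPM in young naive, against 3.43 to 31.3 CPM in young virtual memory libraries. Lep, for the fat cell hormone leptin, had 81.3, 82.5 and 91.7 CPM in old naive libraries and was at 0 in all 5 old virtual memory libraries. Each marker stood in old naive libraries at 2.94% to 5.62% of its mean in the adipocyte libraries of the same series. Neutrophil markers ran the other way, with a summed level of 71.6 to 1283 CPM in old naive, against 9609 to 16023 CPM in old virtual memory libraries, and 26.3 to 118 CPM in young naive, against 9195 to 11167 CPM in young virtual memory libraries. So both marker sums separated naive from virtual memory libraries at both ages with no overlap. Whether these transcripts came from cells or from free RNA was not tested.

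**Figure D1:**
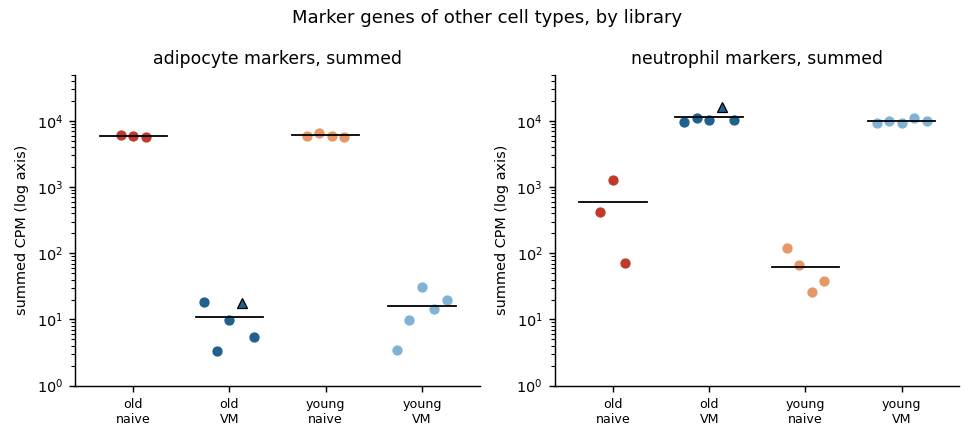
Summed level (CPM, log axis) of 11 adipocyte markers (left) and 12 neutrophil markers (right) in each library; points are libraries, bars are group means, VM is virtual memory, and the triangle is old virtual memory replicate 4. Adipocyte markers lie between 5629 and 6631 CPM in naive libraries of both ages and at or below 31.3 CPM in virtual memory libraries.

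The central question is how old naive cells differ from old virtual memory cells. Of 11103 genes tested, 429 were higher and 639 lower in old naive than in old virtual memory libraries (edgeR's quasi-likelihood test, Benjamini-Hochberg adjusted p below 0.05), which is 9.62% of those tested (3.86% higher and 5.76% lower). The libraries of the groups did not overlap for 17.3% of genes, 7.93% with old naive libraries above and 9.32% with them below. Old naive libraries had more RNA for granzyme K, PD-1, Tox, Ccl5 and Eomes, and less for granzyme M, receptors of natural killer cells, CD44, Ly6C2, interleukin-18 receptor chains and Bcl2. Of the 429 higher genes 176 (41.0%) stood at least 10-fold higher in the adipocyte libraries than in old virtual memory libraries. This held for 2 of the 639 lower genes (0.313%) and 3.31% of all genes tested. Old virtual memory levels enter both this rule and the test, so part of the contrast was set in advance. Leaving out the genes that meet this rule gave 251 higher and 598 lower genes. Leaving out old virtual memory replicate 4 gave 685 higher and 791 lower. Without old naive replicate 1 the test called 244 higher and 345 lower genes, and without old naive replicate 2 it called 269 and 381.

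The labels were checked first on genes of the 2 subsets. Transcripts of the CD8 T cell markers Cd3e, Cd3d, Cd3g, Cd8a, Cd8b1 and Trac were present in both groups, and 0 of the 6 passed the test (3 had an unadjusted p below 0.05, and DESeq2 called 2). Cd8a, for the CD8 alpha chain, had 698, 728 and 670 CPM in old naive libraries, against 389, 604, 501, 450 and 545 CPM in old virtual memory libraries (log2 fold change 0.50 ± 0.17 SE, adjusted p = 0.0876).

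Cd44, for the hyaluronan receptor that defines memory-like cells, had 30.3, 23.7 and 46.8 CPM in old naive libraries, against 199, 232, 223, 241 and 204 CPM in old virtual memory libraries. The groups were well apart (log2 fold change -2.72 ± 0.23, adjusted p = 1.97e-05). Il2rb, for the receptor chain shared by interleukins 2 and 15, had 292, 277 and 301 CPM in old naive libraries and 719, 851, 767, 573 and 756 CPM in old virtual memory libraries (log2 fold change -1.33 ± 0.17, adjusted p = 0.000317). Ly6c2, for a surface antigen of memory-like CD8 cells, had 163, 265 and 238 CPM in old naive libraries, against 3345, 4884, 3030, 1384 and 3504 CPM in old virtual memory libraries (log2 fold change -3.85 ± 0.38, adjusted p = 5.83e-05). Ly6c1, its neighbour and close copy, was low in both, at 5.21 to 7.19 CPM in old naive and 2.75 to 10.5 CPM in old virtual memory libraries, and reads shared between the copies make both values uncertain. Tbx21, for T-bet, had 18.2, 29.6 and 41.6 CPM in old naive libraries, against 170, 141, 127, 79.1 and 136 CPM in old virtual memory libraries (log2 fold change -2.15 ± 0.30, adjusted p = 0.000655). Of the 10 virtual memory markers 8 were lower in old naive libraries.

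The other 2 were higher in old naive libraries. Eomes, the second T-box factor of memory-like cells, had 612, 476 and 627 CPM in old naive libraries, against 207, 234, 249, 215 and 277 CPM in old virtual memory libraries (log2 fold change 1.28 ± 0.16, adjusted p = 0.000316). Ccl5, for a chemokine stored and released by memory CD8 cells, had 42076, 35093 and 29676 CPM in old naive libraries and 17327, 19867, 14239, 14080 and 14782 CPM in old virtual memory libraries (log2 fold change 1.16 ± 0.18, adjusted p = 0.00143). Every old naive library was above every old virtual memory library for both genes. Itga4, for CD49d, had 213, 247 and 275 CPM in old naive libraries, against 22.8, 5.27, 31.7, 121 and 9.59 CPM in old virtual memory libraries (log2 fold change 2.72 ± 0.65, adjusted p = 0.0179). The value of 121 CPM belongs to replicate 4. Itga4 passed in 5 of the 8 fits with a library left out, and not in those that left out an old naive library (adjusted p from 3.4e-05 to 0.055 over the 8).

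**Figure D2:**
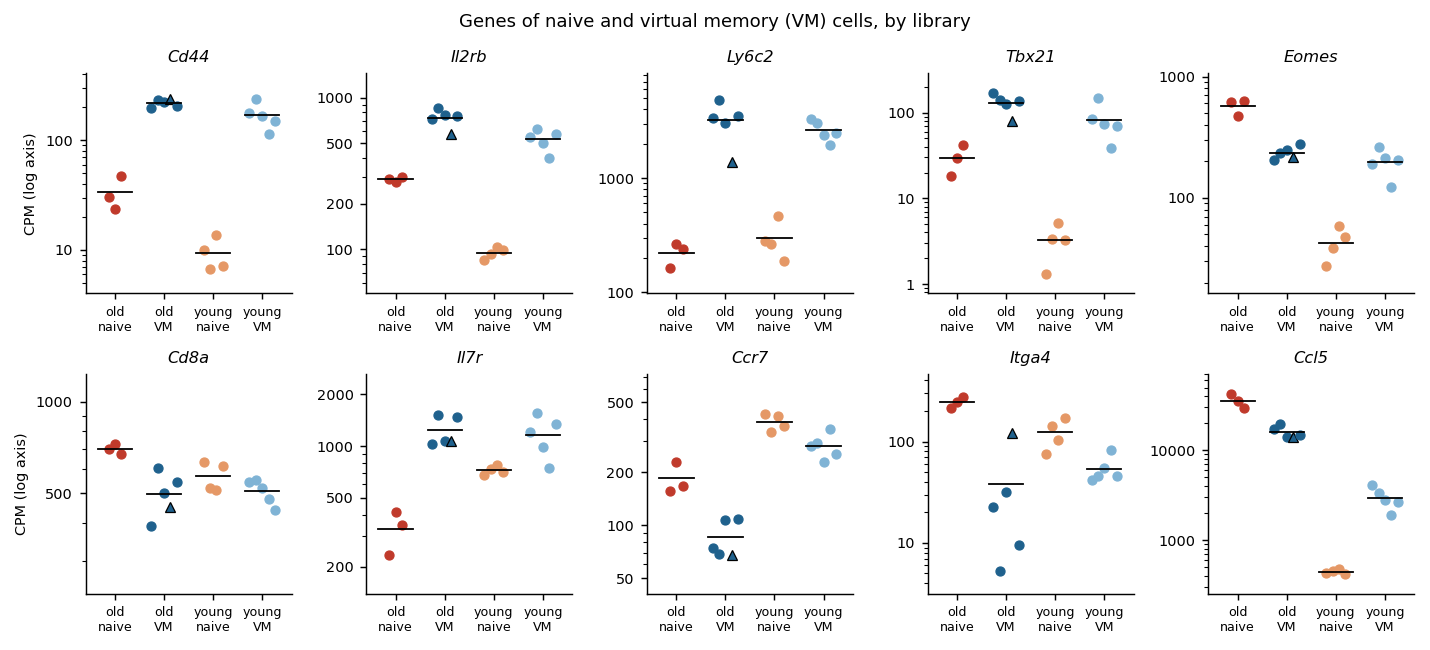
Level (CPM, log axes that differ between panels) of 10 genes used to describe the subsets, in each library of the 4 groups; points are libraries, bars are group means, VM is virtual memory, and the triangle is old virtual memory replicate 4. Cd44, Il2rb, Il7r, Ly6c2 and Tbx21 lie lower in old naive than in old VM libraries, while Eomes, Ccl5, Ccr7 and Itga4 lie higher in old naive libraries.

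Markers of naive cells did not set the old naive libraries above the old virtual memory libraries as a group. The summed level of 11 naive markers was 2473, 3480 and 3073 CPM in old naive libraries, against 3652, 4683, 4403, 3163 and 4757 CPM in old virtual memory libraries, and 5889 to 6784 CPM in young naive, against 5889 to 7378 CPM in young virtual memory libraries. In the longer list of 29 naive T cell genes, 9 were higher and 5 lower in old naive libraries, with a median log2 fold change of -0.08 beside -0.01 over all genes tested. Without old virtual memory replicate 4 they were 9 higher and 10 lower, and without genes of the adipocyte libraries 7 of 27 higher and 5 lower, with a median of -0.31. Igfbp4 and Id3 are among the genes at least 10-fold higher in adipocyte than in old virtual memory libraries. Igfbp4, for a binding protein of insulin-like growth factors, had 142, 241 and 216 CPM in old naive libraries, against 1.52, 1.98, 2.79, 17.9 and 4.80 CPM in old virtual memory libraries (log2 fold change 5.27 ± 0.52, adjusted p = 6.64e-05). Ccr7, the homing receptor for lymph nodes and splenic T zones, had 157, 231 and 169 CPM in old naive libraries and 74.0, 68.5, 108, 68.1 and 109 CPM in old virtual memory libraries (log2 fold change 1.13 ± 0.21, adjusted p = 0.0048).

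Ccr9, a receptor for gut homing, averaged 61.5 CPM in old naive and 5.45 CPM in old virtual memory libraries, and Id3, an inhibitor of E-protein transcription factors, had log2 fold change 2.87 ± 0.43. Art2b, an ADP-ribosyltransferase of resting T cells, was also higher (1.38 ± 0.19). Dapl1 and Actn1, both among the naive markers, were higher at 1.82 ± 0.28 and 2.01 ± 0.40, and were named after their values were seen. Lef1 and Tcf7, transcription factors that keep the naive state, did not pass, with log2 fold changes of 0.27 ± 0.22 and -0.08 ± 0.17, and were named after their values were seen. Il7r, for the survival receptor of naive and memory cells, was lower in old naive libraries at 233, 413 and 349 CPM, against 1021, 1521, 1072, 1070 and 1479 CPM in old virtual memory libraries (log2 fold change -1.88 ± 0.24, adjusted p = 0.000316). The chromatin organiser Satb1 was lower too (-1.49 ± 0.26), as were Cd55 (-1.15 ± 0.22), Pced1b (-1.54 ± 0.38) and Foxp1 (-0.60 ± 0.16), which passed in 6 and 2 of the 8 fits with a library left out. These libraries are therefore called naive here by their label.

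The memory and virtual memory list was mostly lower in old naive libraries, with 21 of 33 members lower, 3 higher and a median log2 fold change of -1.33. The higher members included Eomes and Ccl5. Among the lower members were the calcium-binding annexin gene Anxa1 (-2.47 ± 0.22) and Il18r1 and Il18rap, the 2 chains of the interleukin-18 receptor through which memory cells respond without antigen. Anxa1 was highest in old virtual memory replicate 4, at 268 CPM, against 176, 191, 184 and 178 CPM in replicates 1, 2, 3 and 5. That library also had the highest sum of neutrophil markers. A contribution of neutrophil transcripts to Anxa1 was not tested. Il18r1 had 12.5, 26.1 and 22.8 CPM in old naive libraries, against 287, 211, 206, 103 and 276 CPM in old virtual memory libraries (log2 fold change -3.40 ± 0.36, adjusted p = 0.000103). Cxcr3, a receptor that guides effector and memory cells to inflamed sites, was lower by a smaller margin at 149, 106 and 151 CPM in old naive libraries, against 231, 256, 226, 245 and 204 CPM in old virtual memory libraries (log2 fold change -0.77 ± 0.17), and it did not pass in the fit over both ages (adjusted p = 0.0874) or without old naive replicate 2 (adjusted p = 0.0769).

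Cytotoxic genes were split between the subsets. Of 18 tested, Gzmk, Ccl3, Ccl5 and Nkg7 were higher in old naive libraries and Gzmm was lower. Gzmk, for the serine protease granzyme K, had 671, 510 and 428 CPM in old naive libraries, against 20.4, 16.5, 48.0, 86.7 and 5.99 CPM in old virtual memory libraries (log2 fold change 3.94 ± 0.56, adjusted p = 0.000734). Gzmm, for granzyme M, a protease typical of natural killer and innate-like T cells, had 10.2, 6.19 and 19.5 CPM in old naive libraries, against 640, 589, 458, 144 and 626 CPM in old virtual memory libraries (log2 fold change -5.42 ± 0.55, adjusted p = 7.74e-05). Both genes separated the groups without overlap, in opposite directions. Ccl3, an inflammatory chemokine gene, had 261, 225 and 167 CPM in old naive libraries, against 19.5, 3.29, 26.6, 78.4 and 3.60 CPM in old virtual memory libraries (log2 fold change 3.08 ± 0.65, adjusted p = 0.00862). Nkg7, for a protein of cytotoxic granules, was higher by 0.68 ± 0.18 and passed in 3 of the 8 fits with a library left out. Gzmb and Prf1, for granzyme B and the pore-forming perforin, overlapped between the groups, with log2 fold changes of 0.11 ± 0.33 and -0.19 ± 0.20, and were named after their values were seen.

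The promoters of these opposed granzyme genes are shown because they move in opposite directions between the subsets, together with a T-box factor each way (Eomes and Tbx21). Each sequence runs from 250 bases before to 50 after a start site in RefSeq on GRCm38.p6, and Gzmm has 2 listed starts. Capitals mark the T-box half-site AGGTGT and the TCF/LEF core CTTTGA on either strand.
Gzmk, chr13:113180916-113181215, minus strand: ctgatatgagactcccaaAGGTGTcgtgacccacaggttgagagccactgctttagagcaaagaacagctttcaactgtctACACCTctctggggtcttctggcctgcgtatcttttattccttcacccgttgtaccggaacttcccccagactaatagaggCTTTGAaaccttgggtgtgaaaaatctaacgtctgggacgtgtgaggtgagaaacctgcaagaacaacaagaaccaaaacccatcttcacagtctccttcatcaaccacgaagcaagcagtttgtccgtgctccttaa
Gzmm, first start, chr10:79688770-79689069, plus strand: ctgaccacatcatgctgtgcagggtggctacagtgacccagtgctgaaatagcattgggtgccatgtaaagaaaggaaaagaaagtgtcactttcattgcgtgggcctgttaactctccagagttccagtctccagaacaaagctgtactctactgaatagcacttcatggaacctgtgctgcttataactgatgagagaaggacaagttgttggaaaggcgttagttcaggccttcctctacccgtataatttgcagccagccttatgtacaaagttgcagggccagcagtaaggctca
Gzmm, second start, chr10:79693576-79693875, plus strand: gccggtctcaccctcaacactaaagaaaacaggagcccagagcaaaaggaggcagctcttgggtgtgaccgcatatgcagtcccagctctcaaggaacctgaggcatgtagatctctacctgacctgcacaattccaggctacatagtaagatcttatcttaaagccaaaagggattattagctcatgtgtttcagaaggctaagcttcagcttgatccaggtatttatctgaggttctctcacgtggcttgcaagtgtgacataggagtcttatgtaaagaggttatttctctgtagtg
The Gzmk window holds 2 T-box half-sites and 1 TCF/LEF core, and each Gzmm window holds 0 of either. Of 27025 promoters of the same length, 13.9% hold the T-box half-site and 16.2% the TCF/LEF core. Among promoters of genes tested here the T-box half-site is in 15.8% of 310 higher in old naive libraries, in 11.2% of 499 lower in them, and in 10.3% of all 7894. The TCF/LEF core is in 12.3%, 12.2% and 12.0% of the same promoters. Of all 429 genes higher in old naive libraries, 41.0% stood at least 10-fold higher in adipocyte than in old virtual memory libraries. Motif shares without such genes were not tested. A match of letters describes the sequence and shows no binding.

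Receptors of natural killer cells were lower in old naive libraries as a list. Of 26 genes 19 could be tested, 13 were lower and 0 higher, with a median log2 fold change of -2.47. Without old naive replicate 1, 7 of 18 were lower. Klrk1, for the activating receptor NKG2D, had 14, 25.8 and 38.4 CPM in old naive libraries, against 356, 439, 175, 119 and 177 CPM in old virtual memory libraries (log2 fold change -3.30 ± 0.48, adjusted p = 0.000846). Klrc1, for NKG2A, which pairs with CD94, was lower by a log2 fold change of -3.35 ± 0.63 and, like Cxcr3 above, was named after its values were seen. Klra6, a member of the Ly49 family of receptors for class I molecules, was at 0 in the 3 old naive libraries and at 36.2, 9.22, 10.3, 39.9 and 11.4 CPM in the 5 old virtual memory libraries. Set against 3 counts over the old naive group, that is at least 50.6-fold lower in old naive libraries. Klra3, Klra4, Klra7, Klra8 and Klra9 were lower as well. Of the fits with a library left out that tested them, Klra4 passed in 1 of 2, Klra7 in 5 of 8 and Klra8 in 4 of 6. Since Ly49 genes are near-identical copies on chromosome 6, reads may be split among them. The adaptor gene Tyrobp (-3.02 ± 0.39) and the Fc receptor gene Fcgr3 (-2.24 ± 0.32) are also expressed by myeloid cells, and both were highest in old virtual memory replicate 4, the library with the highest sum of neutrophil markers. Whether neutrophil transcripts contribute to these 2 genes was not tested.

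Genes of inhibitory receptors and exhaustion moved the other way in part. Of 17 tested, Pdcd1, Tox, Tox2 and Havcr2 were higher and Nt5e lower in old naive libraries, with 1 higher by DESeq2 and 1 without old naive replicate 1. Pdcd1, for the checkpoint receptor PD-1, had 145, 154 and 89.8 CPM in old naive libraries, against 4.87, 1.32, 5.12, 44.7 and 0 CPM in old virtual memory libraries (log2 fold change 3.65 ± 0.78, adjusted p = 0.00981). Tox, for a nuclear factor of the exhausted state, had 379, 354 and 352 CPM in old naive libraries, against 52.7, 36.9, 107, 218 and 63.5 CPM in old virtual memory libraries (log2 fold change 1.93 ± 0.43, adjusted p = 0.012). In both genes the highest virtual memory library was replicate 4. Tox2, a relative of Tox, averaged 26.5 CPM in old naive and 2.16 CPM in old virtual memory libraries (log2 fold change 3.84 ± 0.95). Havcr2, for the receptor TIM-3, had 38.6, 27.5 and 21.5 CPM in old naive libraries, against 0.609, 0, 1.86, 17.2 and 0.599 CPM in old virtual memory libraries (log2 fold change 3.01 ± 0.85, adjusted p = 0.0432), and it passed in 1 of the 8 fits with a library left out. DESeq2 did not call Pdcd1, Tox2 or Havcr2, with adjusted p of 0.0886, 0.285 and 0.202. Nt5e, for the ecto-enzyme CD73, had 12.5, 17.2 and 15.0 CPM in old naive libraries, against 73.1, 74.4, 55.9, 79.1 and 77.9 CPM in old virtual memory libraries (log2 fold change -2.26 ± 0.22, adjusted p = 5.11e-05).

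**Figure D3:**
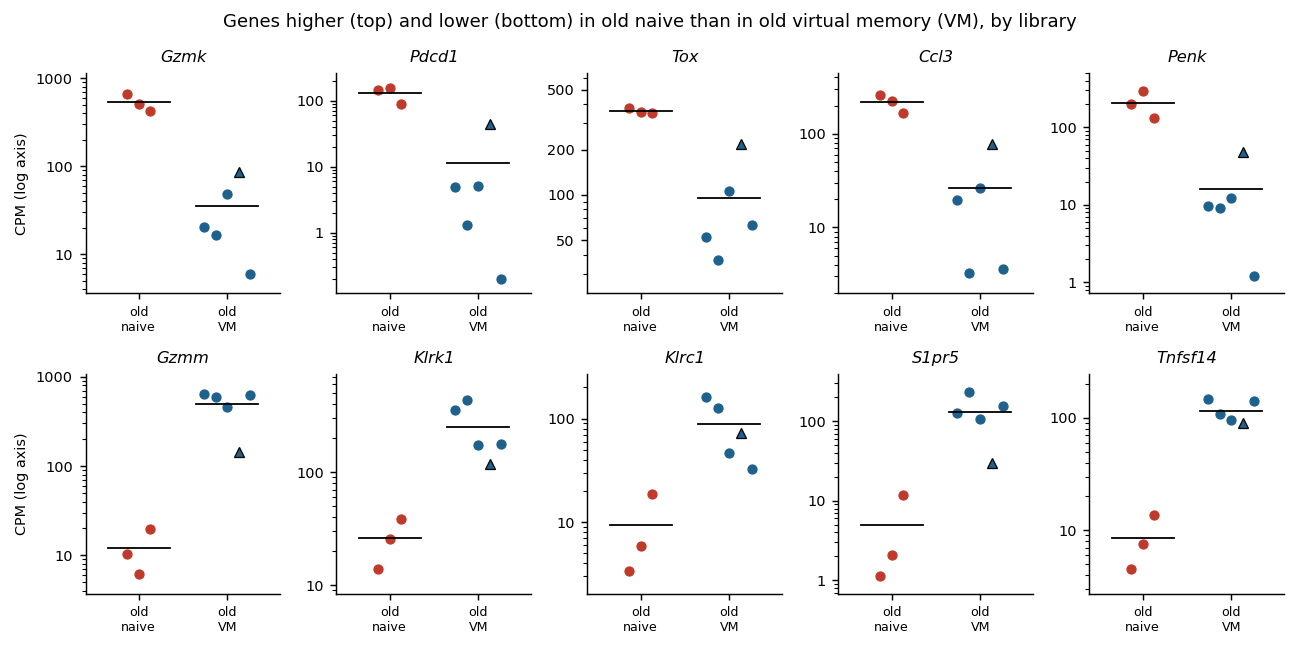
Level (CPM, log axes that differ between panels) of 5 genes higher (top) and 5 lower (bottom) in old naive than in old virtual memory (VM) libraries; points are libraries, bars are group means, the triangle is old virtual memory replicate 4, and a value of 0 is drawn at 0.2 CPM. In each panel the 3 old naive libraries lie outside the range of the 5 old VM libraries.

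Chemokine and homing genes divided evenly, with 7 of 30 higher and 8 lower, though 5 were lower without old naive replicate 1 and 4 without old naive replicate 2. Beside the receptors Ccr9 and Ccr7 named above, Cxcr5, which guides lymphocytes to B cell follicles, had 48.4, 45.4 and 31.2 CPM in old naive libraries, against 17.7, 10.5, 6.52, 20.6 and 12.0 CPM in old virtual memory libraries (log2 fold change 1.64 ± 0.33, adjusted p = 0.0063). S1pr5, for a sphingosine-1-phosphate receptor that lets effector and natural killer cells leave tissues, had 1.13, 2.06 and 11.7 CPM in old naive libraries, against 128, 234, 106, 29.6 and 153 CPM in old virtual memory libraries (log2 fold change -4.94 ± 0.75, adjusted p = 0.00123). The integrin genes Itgb1 and Itga1 were lower in old naive libraries (-1.84 ± 0.27 and -1.74 ± 0.29), and so was the chemokine gene Xcl1, whose product attracts cross-presenting dendritic cells (-1.52 ± 0.26).

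Of 37 transcription factor genes tested, 6 were higher and 5 lower in old naive libraries, and 3 lower without old naive replicate 2 or without old naive replicate 3. Batf, an AP-1 partner in effector differentiation, was higher at 184, 177 and 138 CPM in old naive libraries, against 91.7, 58.0, 80.6, 86.0 and 51.6 CPM in old virtual memory libraries (log2 fold change 1.18 ± 0.21). Ikzf3, for Aiolos, was higher by 1.11 ± 0.22, and Rora and Prdm1, for Blimp-1, by 1.57 ± 0.32 and 0.93 ± 0.25. Gata3 and Runx2 were lower by log2 fold changes of -1.31 ± 0.25 and -1.10 ± 0.25. Prdm1 passed in 4 and Runx2 in 6 of the 8 fits with a library left out.

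Cytokine receptor and signalling genes were more often lower, with 7 of 26 lower and 2 higher. Among the higher ones was Il6st, for the receptor chain gp130 (1.37 ± 0.34), which passed in 5 of the 8 fits with a library left out. Beside Il7r, Il2rb and the interleukin-18 receptor chains, Stat5a, which carries interleukin-7 and interleukin-15 signals (-1.19 ± 0.20), and Socs2, a target and inhibitor of that pathway (-3.88 ± 0.70), were lower in old naive libraries.

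Apoptosis regulators had 4 of 26 members higher and 4 lower. The higher members were 1 without old naive replicate 1, 2 without old naive replicate 3 and 7 without old virtual memory replicate 4. Bcl2, the survival gene induced by interleukins 7 and 15, had 320, 343 and 392 CPM in old naive libraries, against 893, 824, 878, 681 and 1492 CPM in old virtual memory libraries (log2 fold change -1.43 ± 0.24, adjusted p = 0.00251). Bcl2l1, for the survival protein Bcl-xL, was lower too (-1.23 ± 0.24), together with Bbc3, for the death inducer PUMA (-2.34 ± 0.48), and Xiap, a caspase inhibitor (-0.86 ± 0.19). Among the higher members were the caspase gene Casp1 (2.15 ± 0.58) and the survival genes Bcl2a1b (2.04 ± 0.47) and Bcl2a1d (2.76 ± 0.58). The Bcl2a1 genes are near-identical copies whose reads may be shared, and Casp1 passed in 1 of the 8 fits with a library left out.

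Several programmes showed few or no called genes, beside 9.62% called over all genes tested (3.86% higher and 5.76% lower). Of the lists in this paragraph, only the interferon-stimulated genes had a larger share called by edgeR. Proliferation genes had 0 of 29 called by edgeR (4 at an unadjusted p below 0.05, and 1 by DESeq2), with a median log2 fold change of -0.43, or -0.08 without old virtual memory replicate 4. Immediate-early and AP-1 genes, which mark recent stimulation, had 0 of 26 called (7 unadjusted, and 2 by DESeq2), but 4 higher and 10 lower with no filter on low counts. Oxidative phosphorylation genes had 0 of 41 (0 unadjusted, and 0 by DESeq2). Cytosolic ribosomal protein genes had 1 of 51 lower, Rps25, with 1052, 713 and 1220 CPM in old naive libraries, against 3888, 3087, 2219, 1892 and 3125 CPM in old virtual memory libraries (log2 fold change -1.50 ± 0.26, adjusted p = 0.00276), and 5 were lower without old virtual memory replicate 4. Interferon-stimulated genes had 2 of 34 higher, among them Ifi27l2a (1.5 ± 0.22), and 4 lower, Oas3 (-1.48 ± 0.31), Oasl2 (-2.14 ± 0.51), Ifit2 (-1.34 ± 0.35) and Usp18 (-1.15 ± 0.31). The lower calls were 0 without old naive replicate 1 or without old naive replicate 2. Ifi27l2a is among the genes at least 10-fold higher in adipocyte than in old virtual memory libraries. The median of the interferon-stimulated list was 0.14. The T cell receptor list had 1 of 26 higher, the co-stimulatory receptor gene Cd27 (0.65 ± 0.15), and 1 lower, and 0 of either without old naive replicate 1 or without old naive replicate 2.

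Over all genes tested 9.62% were called. All of the short lists that follow except class I presentation had a larger share called by edgeR. Each rests on 3 called genes or fewer, so these calls are not read as changes of the programmes. Among cell-cycle inhibitors, Cdkn2c was higher (1.6 ± 0.31) and Cdkn1b, for p27, lower (-1.44 ± 0.30) of 10. Cdkn2c is among the genes at least 10-fold higher in adipocyte than in old virtual memory libraries. It did not pass without old naive replicate 1 (adjusted p = 0.0641). Chromatin genes had the Polycomb gene Bmi1 higher (1.31 ± 0.24) and Uhrf1, which maintains DNA methylation, lower (-1.74 ± 0.30) of 18. In the unfolded protein response the chaperone genes Pdia4 (-1.10 ± 0.27) and Sdf2l1 (-1.32 ± 0.34) and Herpud1 (-1.01 ± 0.29) were lower of 20, with 0 lower when any 1 of the 3 old naive libraries was left out. In class I presentation Tapbp was lower (-0.63 ± 0.18) of 20, in 2 of the 8 fits with a library left out. Glycolysis had Ldhb higher (1.36 ± 0.34) and the lactate transporter gene Slc16a3 (-2.29 ± 0.52) and Pgk1 (-1.26 ± 0.34) lower of 19. Without old naive replicate 1, 0 of these passed, and Pgk1 did not pass with no filter on low counts (adjusted p = 0.0712). Cholesterol synthesis had Sqle (1.92 ± 0.43) and Fdft1 (1.24 ± 0.33) higher of 20, and 0 higher without old naive replicate 2 or without old naive replicate 3. Fatty acid oxidation had 3 of 21 higher, Acsl1 (1.78 ± 0.31), Acadl (1.14 ± 0.21) and Acadm (0.63 ± 0.18), and 1 of the list was called when genes of the adipocyte libraries were left out. Acadm passed in 1 of the 8 fits with a library left out.

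**Figure D4:**
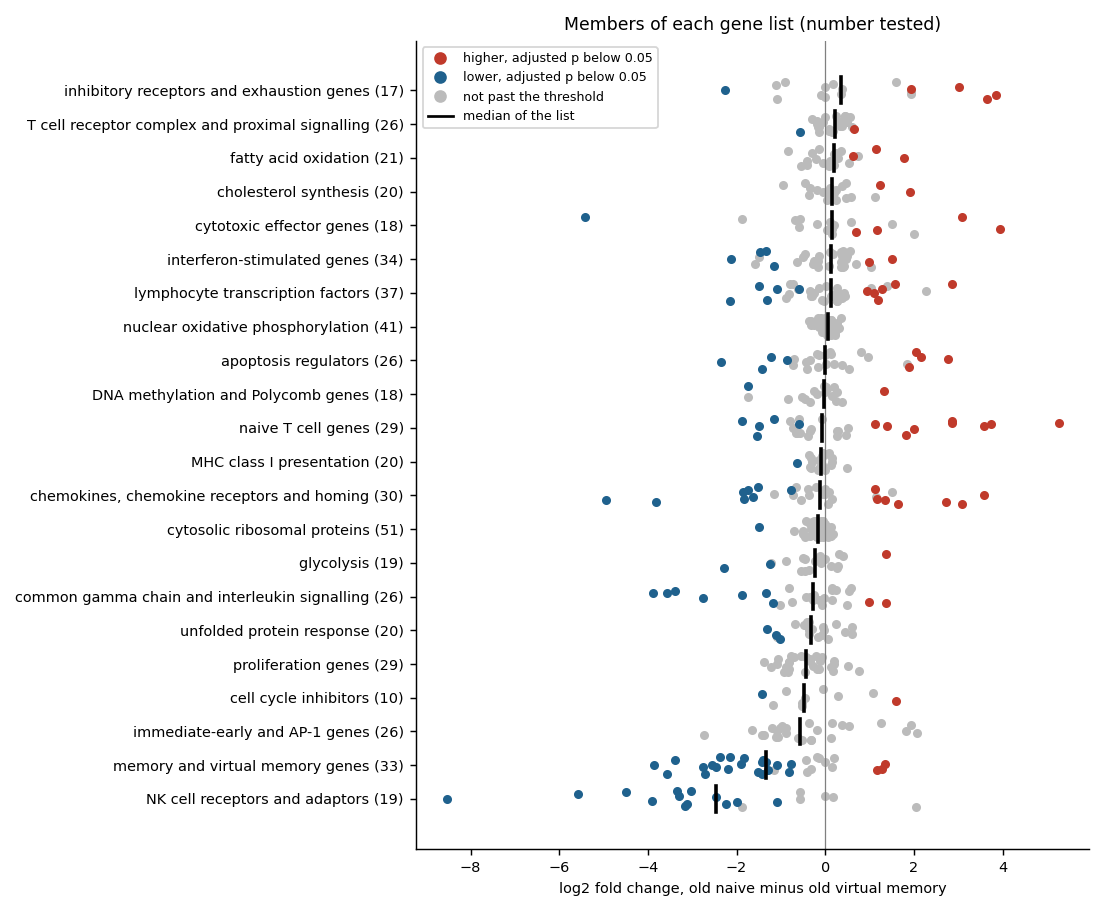
Log2 fold change (old naive minus old virtual memory) of the tested members of 22 gene lists, with the number tested in parentheses; points are genes, red and blue points passed adjusted p below 0.05 as higher and lower in old naive libraries, grey points did not, and black bars are list medians. Natural killer receptors (median -2.47) and memory genes (median -1.33) lie to the left of zero.

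The genes with the largest fold changes were read beside the marker sums. The 14 highest in old naive libraries were Lep, Adipoq, Cfd, Car3, Cidec, Prelp, Aoc3, Cav1, Fabp4, Sod3, Dpt, Cyp2e1, Plin4 and Sncg, of which Adipoq, Cfd, Car3, Cidec, Fabp4, Plin4 and Lep are on the adipocyte marker list. Fabp4, for the fat cell fatty acid carrier, had 1703, 1610 and 1544 CPM in old naive libraries, against 3.35, 0.659, 0.932, 11.7 and 0 CPM in old virtual memory libraries. Adipoq, for adiponectin, had 223, 222 and 239 CPM in old naive libraries and 0, 0.659, 0, 0 and 0 CPM in old virtual memory libraries. Against 3 counts over the old virtual memory group, Lep was at least 286-fold higher in old naive libraries, Prelp at least 113-fold, Aoc3 at least 109-fold, Sod3 at least 95.5-fold and Dpt at least 67.3-fold. Markers of stromal cells were higher as well, 4 of the 4 tested, among them Dcn and Sparc (7.26 ± 0.59 and 4.02 ± 0.21). None of these 14 passed in the test of the difference between ages.

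The 14 lowest in old naive libraries were Klra6, Mmp8, Il1f9, Gzmm, Cd163l1, Styk1, Mmp9, Aqp9, Cd177, S1pr5, Fcgr2b, Edaradd, S100a9 and Retnlg. Mmp8, Mmp9, Cd177, S100a9 and Retnlg are typical of neutrophils, and of 12 neutrophil markers 10 were lower. S100a9, for a subunit of calprotectin, had 68.5, 174 and 7.81 CPM in old naive libraries, against 1758, 2011, 1947, 2944 and 1952 CPM in old virtual memory libraries (log2 fold change -4.64 ± 0.70, adjusted p = 0.00108). Fcgr2b, for the inhibitory Fc receptor, had 1.89, 4.13 and 3.25 CPM in old naive libraries, against 95.3, 82.4, 116, 37.8 and 144 CPM in old virtual memory libraries (log2 fold change -4.91 ± 0.48, adjusted p = 5.7e-05). Replicate 4 was the lowest of the old virtual memory libraries for Fcgr2b, as it was for Gzmm, S1pr5 and Aqp9. It was also the highest of them in neutrophil, plasma cell and erythroid markers. Why these genes were lower in it was not tested. Edaradd, for an adaptor of the ectodysplasin receptor, had 3.03, 1.72 and 4.55 CPM in old naive libraries, against 108, 73.8, 82.0, 63.3 and 82.1 CPM in old virtual memory libraries. Cd163l1 had a log2 fold change of -5.19 ± 1.11 and did not pass without old naive replicate 1 or 2, with an adjusted p from 0.00195 to 0.0618 over the 8 fits with a library left out.

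A few genes outside those rules were singled out after their values were seen. Penk, for an enkephalin precursor, had 204, 295 and 131 CPM in old naive libraries, against 9.75, 9.22, 12.1, 47.5 and 1.20 CPM in old virtual memory libraries (log2 fold change 3.78 ± 0.60, adjusted p = 0.00153). The adhesion receptor gene Adgrg1 (4.60 ± 0.77), the serine protease inhibitor gene Serpina3g (1.89 ± 0.43) and the gamma chain constant segment Trgc2 (3.13 ± 0.74), which has near-identical copies, were higher too. DESeq2 did not call Adgrg1 (adjusted p = 0.0709) or Trgc2 (0.118). Markers of gamma delta, NKT or MAIT cells (7 in the table, of which 2 were tested and 0 passed) had a summed level of 311.5 to 337 CPM in old naive libraries, against 11.4 to 212.5 CPM in old virtual memory libraries, and 22.0 to 31.8 CPM in young naive, against 24.0 to 35.4 CPM in young virtual memory libraries. Among them Il23r was at 0 in both old groups. Their part in these results was not tested. Tnfsf14, for the cytokine LIGHT, had 4.54, 7.56 and 13.7 CPM in old naive libraries, against 146, 109, 95.0, 90.1 and 140 CPM in old virtual memory libraries (log2 fold change -3.82 ± 0.33, adjusted p = 2.53e-05), and the kinase gene Pim1, a target of STAT5, was lower by a log2 fold change of -3.0 ± 0.64.

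A last comparison asked whether the naive to virtual memory difference was the same size in young mice. The difference of the differences was tested over the 17 libraries of both ages. Of 12634 genes tested 117 passed (0.926%), 93 with a more positive difference in old mice (0.736%) and 24 with a more negative one (0.19%). Without old virtual memory replicate 4 the counts were 159 and 61. They were 65 and 9 without old naive replicate 1, 65 and 12 without old naive replicate 2, and 62 and 11 without young naive replicate 2. Age and cohort cannot be told apart here, since the labels give no further batch.

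Of the 33 memory and virtual memory genes, 12 passed with a more positive difference in old mice and 1, Lgals1, with a more negative one. Ccl5 averaged 35615 ± 6217 CPM in old naive libraries (SD, n = 3) and 16059 ± 2498 CPM in old virtual memory libraries (SD, n = 5), but 447 ± 24.3 CPM in young naive (n = 4) and 2974 ± 807 CPM in young virtual memory libraries (n = 5). Its log2 fold change was thus positive in old mice (1.15) and negative in young mice (-2.73), a difference of 3.88 ± 0.27 (edgeR, adjusted p = 1.23e-08). Eomes showed the same turn, with 572 ± 83.0 CPM in old naive and 236 ± 28.1 CPM in old virtual memory libraries, and 42.9 ± 13.3 CPM in young naive and 199 ± 49.8 CPM in young virtual memory libraries (difference 3.50 ± 0.30, adjusted p = 5.16e-07).

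Other memory genes kept their direction with a smaller log2 fold change in old mice, which is a smaller ratio and not a smaller gap in CPM. Cd44 averaged 33.6 ± 11.9 CPM in old naive and 220 ± 18.1 CPM in old virtual memory libraries, and 9.33 ± 3.17 CPM in young naive and 169 ± 44.8 CPM in young virtual memory libraries (difference 1.41 ± 0.34, adjusted p = 0.0444). Il2rb averaged 289.8 ± 11.9 CPM in old naive and 733 ± 102 CPM in old virtual memory libraries, and 94.9 ± 7.77 CPM in young naive and 530.1 ± 86.0 CPM in young virtual memory libraries (difference 1.14 ± 0.21, adjusted p = 0.00732). Cd44 passed in 4 of the 17 fits with a library left out and not with RLE size factors (adjusted p = 0.055), and Il2rb passed in all 17. Tbx21 and Cxcr3 differed by 2.59 ± 0.55 and 3.72 ± 0.42, and passed in 13 and 17 of those fits. Itga4 did not pass (1.54 ± 0.72, adjusted p = 0.533).

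Of 30 chemokine and homing genes 7 passed with a more positive difference in old mice and 2, Itga1 and Itgb7, with a more negative one. Of 38 transcription factor genes 5 passed with a more positive difference and 0 with a more negative one. Cxcr5 averaged 41.7 ± 9.18 CPM in old naive and 13.5 ± 5.66 CPM in old virtual memory libraries, and 5.34 ± 0.939 CPM in young naive and 36.3 ± 15.1 CPM in young virtual memory libraries (difference 4.41 ± 0.50, adjusted p = 2.5e-05). Id3 averaged 72.0 ± 12.6 CPM in old naive and 10.2 ± 7.45 CPM in old virtual memory libraries, and 86.1 ± 9.06 CPM in young naive and 134 ± 46.9 CPM in young virtual memory libraries (difference 3.51 ± 0.48, adjusted p = 0.000272). For Cxcr5 the old naive mean was above the young naive mean, and the old virtual memory mean was below the young virtual memory mean. For Id3 both old means were below the young means.

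By size, the 6 most positive differences were those of Lmo1 (6.01 ± 1.24), Dmrta1, Ccl4 (5.26 ± 0.81), Chst2, Cd177 and Gzma (4.42 ± 0.85). Dmrta1 and Cd177 were at 0 in all young naive libraries, so their fitted differences and rank depend on the prior count of the fit. With a library left out, Ccl4 and Gzma passed in all 17 fits, Chst2 in 16, Lmo1 in 15 (adjusted p up to 0.303), Cd177 in 6 and Dmrta1 in 5. Lmo1, for a LIM-domain transcriptional partner, had 35.2, 44.0 and 20.8 CPM in old naive libraries, against 0.305, 0.659, 1.40, 0.688 and 0 CPM in old virtual memory libraries, and averaged 0.324 CPM in young naive and 0.347 CPM in young virtual memory libraries. Ccl4, for a chemokine made by activated cytotoxic cells, averaged 908 ± 95.0 CPM in old naive and 319 ± 245 CPM in old virtual memory libraries, and 17.2 ± 4.08 CPM in young naive and 231 ± 189 CPM in young virtual memory libraries. Gzma, for granzyme A, averaged 126 ± 37.0 CPM in old naive and 32.2 ± 30.5 CPM in old virtual memory libraries. Within old mice Ccl4 and Gzma did not pass in the fit of the 8 old libraries (adjusted p = 0.0909 and 0.0624). Both passed there with no filter on low counts, and Gzma also in the fit over both ages (adjusted p = 0.0226). The neutrophil genes Cd177, Mmp8, S100a8, S100a9, Retnlg, Ltf, Lcn2 and Csf3r also passed, of which S100a9, Ltf and Csf3r did so in 3, 4 and 2 of the 17 fits with a library left out, beside a sum of neutrophil markers of 71.6 to 1283 CPM in old naive and 26.3 to 118 CPM in young naive libraries.

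The 6 most negative differences were those of Gcnt2 (-3.66 ± 0.78), Socs2 (-3.55 ± 0.78), Spats2, Fcgrt (-3.05 ± 0.39), Itga1 (-2.88 ± 0.39) and Nrp2. With a library left out, Fcgrt and Itga1 passed in all 17 fits, Gcnt2 in 13, Socs2 in 9, Nrp2 in 5 and Spats2 in 4. Fcgrt, for the neonatal Fc receptor, averaged 19.1 ± 0.925 CPM in old naive and 209.5 ± 73.6 CPM in old virtual memory libraries, and 30.6 ± 4.83 CPM in young naive and 40.2 ± 7.98 CPM in young virtual memory libraries (adjusted p = 0.000141). Socs2 averaged 6.10 ± 1.51 CPM in old naive and 92.1 ± 83.1 CPM in old virtual memory libraries, and 4.80 ± 0.411 CPM in young naive and 6.01 ± 2.02 CPM in young virtual memory libraries. For Fcgrt and Socs2 the mean of the old virtual memory group was above those of the other 3 groups. Nt5e averaged 14.9 ± 2.35 CPM in old naive and 72.1 ± 9.38 CPM in old virtual memory libraries, and 30.4 ± 9.62 CPM in young naive and 37.1 ± 11.1 CPM in young virtual memory libraries (difference -2.0 ± 0.36, adjusted p = 0.00445). Gzmk, Gzmm, Pdcd1, Tox and Klrk1 did not pass in this test, with differences of 1.63, 2.71, 2.31, 1.54 and -0.33.

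**Figure D5:**
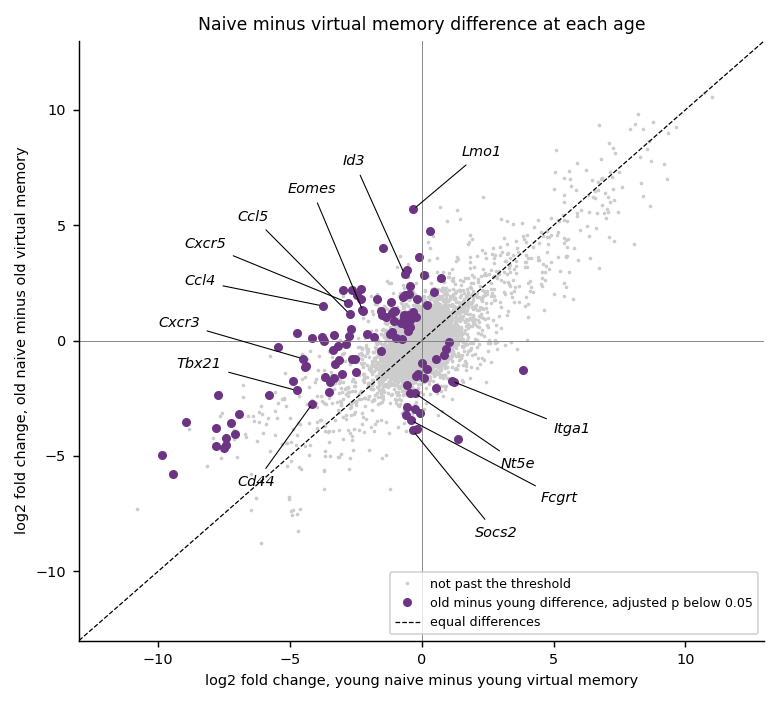
Log2 fold change of naive minus virtual memory in old mice (vertical axis) against the same in young mice (horizontal axis) for 12634 genes; points are genes, purple points are the 117 whose old and young differences differed at an adjusted p below 0.05, and the dashed line marks equal differences. Ccl5, Eomes, Cxcr5 and Id3 lie above zero in old mice and below zero in young mice, while Socs2 and Fcgrt lie below the dashed line.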

How the data were processed

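RNA was counted per gene by the authors from 3′-biased poly(A) libraries with a 10 bp molecular identifier, per the labels' protocols, and no source used here says if identifiers served to drop copies. Builds GRCm38.p6 and mm10, the aligner STAR and featureCounts 2.0.1 appear in the submitters' processing notes. The deposited counts are whole numbers for 55484 genes with no normalization, and 53362 names were matched to GENCODE M21. Of these, 37 mitochondrial genes had 0 counts.

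Counts of the 8 old libraries, and of 17 libraries for the age difference, were fitted with edgeR 4.0.16 in R 4.3.3 (TMM scaling, filterByExpr at min.count 10 and min.total.count 15, glmQLFit and glmQLFTest, Benjamini-Hochberg over all genes tested). In simulated counts (10656 genes) the old comparison found 68% of changes of 4-fold and 27.8% of those of 2-fold, and the age difference (12182 genes) 53% and 9%. Named genes had an adjusted p below 0.05, at least 20 CPM and, in old mice, no overlap of the groups (the 14 highest and 14 lowest; 6 and 6 for age). Up to 4 called members per list and direction, and genes of the subsets, were added. Sex-linked and unnamed genes, pseudogenes and receptor segments were left out, and some genes these rules name are not reported here. The members, lists and rules were chosen with earlier results of these data known. The alternatives were RLE size factors, no filter, DESeq2 1.42.0, a replicate block, a fit over both ages and glmTreat against a 2-fold change. Others were omission of immunoglobulin and globin genes and omission of each library. Chosen after seeing the data was omission of genes at least 10-fold higher in adipocyte than in old virtual memory libraries.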

Additional observations from a re-analysis of the deposited data

Results flagged for a closer look

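Old virtual memory replicate 4 was the library most often far from the other 4 of its group, in 38 of 48 such values among 156 examined. These values are not independent, since marker sums hold genes also listed singly, so no chance rate is set beside them. Replicate 4 had 6.55% of its counts in immunoglobulin genes and 1.23% in globins. Its summed marker levels were 68334 CPM for plasma cells, 13538 CPM for erythroid cells, 16023 CPM for neutrophils, 2341 CPM for macrophages or monocytes, 1275 CPM for dendritic cells and 306 CPM for CD4 T cells. Single genes high in it were Cd4 (39.2 CPM), Pdcd1 (44.7), Tox2 (10.3), Havcr2 (17.2), Itga4 (121), Igfbp4 (17.9), Ccr9 (16.5), Chst2 (26.8), Casp1 (113), Penk (47.5), Serpina3g (129), Adgrg1 (8.25), Oasl2 (31.0), Herpud1 (248), Anxa1 (268), Tyrobp (301), Fcgr3 (61.2), Il1f9 (64.0), Fabp4 (11.7), Sncg (1.38) and Pck1 (0.688 CPM). Neutrophil genes high in it were S100a8 (6115 CPM), S100a9 (2944), Ngp (3088), Camp (1284), Retnlg (1255), Ltf (550.3) and Csf3r (49.5 CPM). Aqp9 (33.7 CPM) and Fcgrt (79.8 CPM) were low in it.

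In other old virtual memory libraries, Styk1 (75.8 CPM), Tcf7 (562) and Adipoq (0.659) were high in replicate 2, Pim1 (3687) and Cyp2e1 (1.40) were high and Nt5e (55.9) low in replicate 3, Bcl2 (1492) was high and Gata3 (163) low in replicate 5, and Cav1 (0.305) and Plin4 (0.305 CPM) were high in replicate 1. The values of Adipoq, Cav1, Cyp2e1, Plin4 and Pck1 are single libraries above 0 in a group otherwise at 0.

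The naive to virtual memory difference differed between old and young mice (edgeR, adjusted p below 0.05) for the following genes, given as the old minus young difference in log2. More positive in old mice were Lmo1 (6.01), Dmrta1 (5.43), Ccl4 (5.26), Chst2 (5.17), Gzma (4.42), Cxcr5 (4.41), Ccl5 (3.88), Cxcr3 (3.72), Ccl3 (3.62), Id3 (3.51), Eomes (3.50), Runx2 (3.29), Actn1 (2.62), Tbx21 (2.59), Ikzf3 (1.6), Cd44 (1.41), Nkg7 (1.27) and Il2rb (1.14). Of these, Ccl3 passed in 4 of the 17 fits with a library left out. It did not pass with RLE size factors in edgeR (adjusted p = 0.0508) or with DESeq2 (adjusted p = 0.0545). Neutrophil genes with a more positive difference were Cd177 (4.89), Lcn2 (3.98), Csf3r (3.74), Mmp8 (3.64), Retnlg (3.26), S100a8 (3.21), Ltf (2.91) and S100a9 (2.86, with log2 fold changes of -4.64 in old and -7.50 in young mice). Dmrta1 and Cd177 were at 0 in all young naive libraries, so their values depend on the prior count of the fit. More negative in old mice were Gcnt2 (-3.66), Socs2 (-3.55), Spats2 (-3.08), Fcgrt (-3.05), Itga1 (-2.88), Nrp2 (-2.74) and Nt5e (-2.0).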

How the results depend on the processing

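The old comparison called 1068 genes. With no filter on low counts it called 1662 (of 35197 genes tested), and 345 passed against a 2-fold change. Leaving out 1 library gave 589 (without old naive replicate 1) to 1476 (without old virtual memory replicate 4). RLE size factors gave 1066, DESeq2 1319, the fit over both ages 1432 and omission of immunoglobulin and globin genes 1094. Omission of adipocyte-library genes gave 849, where the share of higher calls was 29.6% in place of 40.2%. That set is defined against old virtual memory levels, so part of this fall was set in advance. The age difference called 117 genes, 79.5% of them upwards. It called 111 with RLE size factors, 320 with no filter (63.4% upwards, where the median of all genes was -0.14) and 195 with DESeq2 (62.1% upwards), and leaving out 1 library gave 73 (without young naive replicate 2) to 220 (without old virtual memory replicate 4). Of the causes of these shifts none was tested, beyond fewer libraries or more genes in the fits named.

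The labels state no pairing, so replicate numbers were not taken to pair the old libraries. Deviations of same-numbered old libraries correlated at 0.0954, 0.14 and 0.277, and those of other numbers at -0.228 to 0.0763. Each old naive library correlated best with its own number. Same-numbered young libraries correlated at 0.25, -0.0326, -0.0275 and 0.0847 for replicates 1, 2, 3 and 4. Whether same numbers share animals was not tested. A replicate block kept only numbers present in both groups of an age. It thus left out old virtual memory replicates 4 and 5 and young virtual memory replicate 5. With the block the old comparison called 1598 genes and the age difference 200. Effects of the block and of the loss of those libraries cannot be told apart here. In old mice this fit called 6 immediate-early and AP-1 genes higher and 8 lower of 25. It called 9 naive T cell genes higher and 11 lower, and 8 cytosolic ribosomal protein genes lower, and the median of proliferation genes was -0.09. There Ccl4 and Gzma passed (adjusted p = 0.0113 and 0.0447) and Pgk1 did not (0.059), and in the age difference Cd177 did not (0.0833).

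Among 137 named genes, 0 reversed under any setting run, and 104 of their fits with a library left out lost the call. For the 12 genes named by the size of their age difference, 63 fits with a library left out lost it. In simulated counts most 2-fold changes were missed, and how far depth sets this was not tested.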

Other observations

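The 17 libraries spread on a first principal component (33.7% of variance) that set naive apart from virtual memory libraries at both ages. On the second (15.3%) the old libraries lay at -58.5 to -3.87 and the young ones at 16.7 to 40.3. Old virtual memory replicate 4 lay lowest on it.

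Adipocyte markers were also looked at in other groups of the series, in plain CPM. Their summed level was 20.9 to 41.5 in the 3 old CD8 memory libraries, 9.69 to 62.4 in the 3 old CD4 naive libraries and 72893 to 158018 in the 5 old adipocyte libraries, 4100 to 4688 in the 3 old kidney endothelial libraries and 3724 to 5719 in the 3 old lymph endothelial libraries, beside 5951 to 6256 in the 3 old naive CD8 libraries. Neutrophil markers summed to 752 to 15092 in old CD8 memory, 739 to 6325 in old CD4 naive and 5898 to 10850 in old B cell libraries, beside 8990 to 15135 in old virtual memory libraries.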
